A study of Rattus norvegicus with 62 samples.

Results

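The mitochondrially encoded respiratory chain genes examined here are 10 rat genes, chosen by their Ensembl identifiers in the gene column of the count table. They were 10 of 32545 genes in the table, and all 10 were among the 16535 genes that passed the filter on low counts. Complex I subunits were Mt-nd1 (ENSRNOG00000030644), Mt-nd2 (ENSRNOG00000031033), Mt-nd4 (ENSRNOG00000029707), Mt-nd5 (ENSRNOG00000029971) and Mt-nd6 (ENSRNOG00000029042). The complex III subunit was Mt-cyb (ENSRNOG00000031766). Complex IV subunits were Mt-co1 (ENSRNOG00000034234), Mt-co2 (ENSRNOG00000030371) and Mt-co3 (ENSRNOG00000030700), and the subunit of ATP synthase was Mt-atp6 (ENSRNOG00000031979).

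These genes lie on the small circular genome inside mitochondria, where each strand is transcribed as a long precursor that is cut into separate RNAs. Complexes I, III and IV pass electrons to oxygen and pump protons, and ATP synthase uses the proton gradient to make ATP, on which neurons depend heavily. Mt-nd6 is the only protein-coding gene on its strand, opposite to the strand that carries the other 9 genes.

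Gene expression was measured by RNA-seq in punches of the central and basolateral amygdala of male Long Evans rats, which were 10 to 12 weeks old and 250 to 300 g at the start. Blast animals received a 74.5 kPa blast overpressure in a shock tube every 24 h for 72 h, and sham animals were handled in the same way without the overpressure. The sub-acute animals, which the labels call acute, were studied weeks after exposure and the chronic animals about a year after it, so time after exposure and age cannot be told apart. The sub-acute groups held 17 sham and 17 blast animals and the chronic groups 14 of each, all without a genetic change as far as the labels say. Each animal gave 1 library and is named here as in the labels (AS and AB for sub-acute sham and blast, CS and CB for chronic sham and blast, with the animal number), and behavioral testing came before tissue collection in all 4 groups. Chronic animals had fewer of the tests and a larger open field, so the testing also differed between the time-points. The files do not pair gene identifiers with symbols and the reference table paired none of them, so the tissue could not be checked against its markers, and nuclear genes of the respiratory chain could not be identified.

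Total counts per animal ran from 18220986 to 78585782. The chronic libraries were shallower, with a median of 37460121 counts in chronic blast and 54959799 in sub-acute blast animals. In 10 libraries, expression over the genes outside the list was spread widely around the median animal. Their interquartile range of relative log2 expression, the middle spread of a library's log2 differences from each gene's median over animals, was above 0.5, against 0.201 to 0.484 in the other 52. These were 2 libraries in each group other than chronic blast and 4 in chronic blast, and they included the 2 shallowest libraries, CB149 and CS115. Results are therefore given with and without the 10 libraries of wide spread, a limit that was set after the data had been seen.

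The 10 genes together took up between 0.993% and 8.84% of an animal's counts. In sub-acute sham animals the lowest share was 3.04%, the median 5.69% and the highest 7.46%. In sub-acute blast animals the values were 1.61%, 5.69% and 7.34%. In chronic sham animals they were 0.993%, 6.79% and 7.87%, and in chronic blast animals 1.49%, 5.72% and 8.84%. All 4 groups overlapped over most of their range, and the lowest animals of 3 of the groups stood well below the sub-acute sham animals. The means were 5.72% ± 1.11 (SD, n = 17), 5.22% ± 1.60 (SD, n = 17), 6.07% ± 1.97 (SD, n = 14) and 5.31% ± 2.30 (SD, n = 14) in the same order. Since the share is a sum over chosen genes, no test was made on it. The means of the animals outside the libraries of wide spread were 5.55% ± 1.07 (SD, n = 15), 5.65% ± 1.12 (SD, n = 15), 6.78% ± 0.829 (SD, n = 12) and 6.32% ± 1.39 (SD, n = 10), and every one of the 52 animals had a share of at least 3.01%. In bulk tissue, fewer cells of a type and less RNA per cell cannot be told apart.

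**Figure D1:**
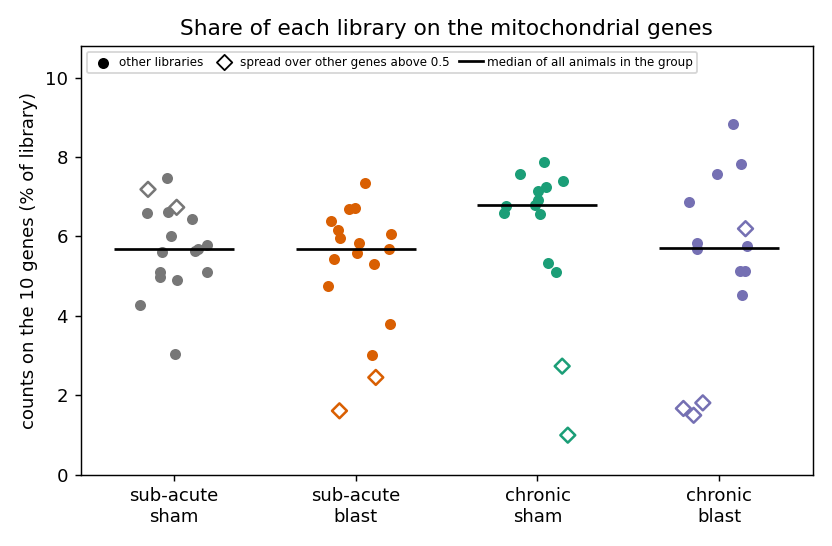
Each point is an animal, the vertical axis gives counts on the 10 genes as a percent of the library's total count, bars are group medians over all animals, and open diamonds mark the 10 libraries of wide spread. The 4 groups overlap, and the 7 lowest points, from 0.993% to 2.73%, are all open diamonds. The next lowest points, at 3.01% and 3.04%, are not.

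The 7 animals with the lowest shares, from 0.993% to 2.73%, were all among the 10 libraries of wide spread. They were AB222 and AB239, CS115 and CS144, and CB111, CB147 and CB149, and no sub-acute sham animal was among them. The next lowest shares were 3.01% in AB216 and 3.04% in AS104, a sub-acute sham animal, and neither library was of wide spread. The complete overlap and the absence of sub-acute sham animals therefore depend on where the cut was placed. The other 3 libraries of wide spread, AS204, AS224 and CB136, had shares of 6.20% to 7.19%, inside the range of the remaining animals. The sub-acute sham libraries of wide spread, AS204 (7.19%) and AS224 (6.73%), were thus not low, while those of chronic sham, CS115 and CS144, were the lowest of their group. Fits without the libraries of wide spread therefore leave out the animals lowest in these same genes, and are a description. The lowest share, 0.993%, was in CS115, which had 20582780 counts, and CB149, with 18220986 counts, had 1.67%. A low share was not found in shallow libraries alone, since AB239 had 54959799 counts and a share of 2.45%. The part of library depth and of the wide spread in these shares was not tested.

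**Figure D2:**
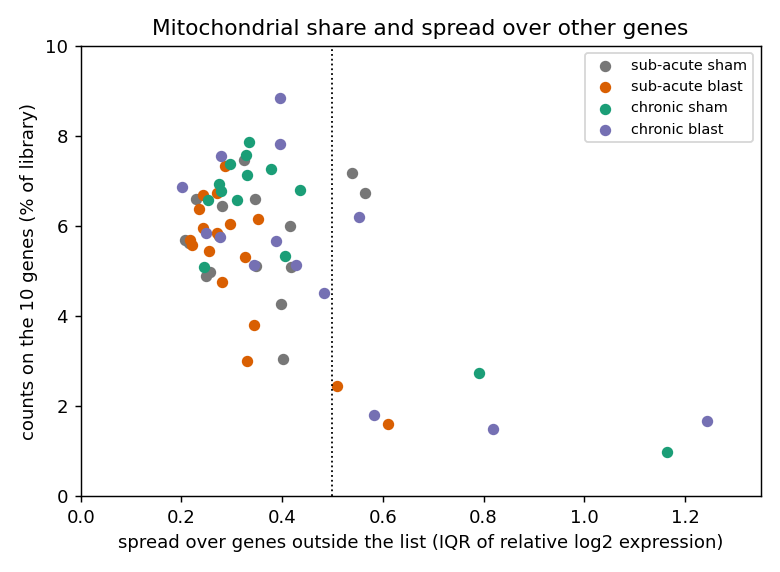
Each point is an animal, the horizontal axis gives the interquartile range of relative log2 expression over genes outside the list, the vertical axis gives the share of counts on the 10 genes in percent of the library, and the dotted line marks 0.5. All points with a share under 3% lie to the right of the line, and 3 points to the right of it have shares of 6.20% to 7.19%. The next lowest shares, 3.01% and 3.04%, lie to its left.

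The levels of single genes are given as a percent of the library, unadjusted for gene length because the length of these genes was not available here, so they compare animals and not genes. Mt-nd1, a core subunit of complex I in the membrane arm, ran from 0.0621% to 0.674% of a library over the 62 animals, with a median of 0.479%. Mt-nd2, another membrane subunit, ran from 0.0330% to 0.675% around 0.413%. In both genes the lowest animal was CS115.

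Mt-nd4 codes for a proton-pumping subunit of complex I. It was counted 87 times in CS115 and 10384 times in the highest animal, with a median of 4828.5 counts. Unadjusted for length, that median compares with 10953 for Mt-nd6 and 180927 to 878606 for the other 8 genes. Its share was 0.00345% to 0.0171% in sub-acute sham animals, 0.00119% to 0.0143% in sub-acute blast, 0.000423% to 0.0180% in chronic sham and 0.00128% to 0.0161% in chronic blast animals. The ranges of the groups overlapped. How reads that map to several places were counted is not given in the sources used here, and copies of mitochondrial genes are present in the nuclear genome, so the counts of all 10 genes are uncertain to that extent. The values of Mt-nd4, which had the lowest counts of the 10, are given with that doubt.

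Mt-nd5 codes for the proton-pumping subunit at the far end of the membrane arm of complex I. Its lowest, median and highest shares were 0.220%, 0.361% and 0.460% in sub-acute sham animals, and 0.132%, 0.333% and 0.471% in sub-acute blast animals. They were 0.224%, 0.428% and 0.525% in chronic sham and 0.144%, 0.376% and 0.565% in chronic blast animals. The chronic medians were above the sub-acute ones, with broad overlap. Over all animals the SD of Mt-nd5 was 25.6% of its mean, less than in the 8 genes other than Mt-nd5 and Mt-nd6, in which it was 28.3% to 41.7%.

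Mt-nd6 codes for a membrane subunit of complex I and is transcribed from the opposite strand. Its lowest, median and highest shares were 0.0109%, 0.0218% and 0.0323% in sub-acute sham animals, and 0.0107%, 0.0207% and 0.0264% in sub-acute blast animals. They were 0.0164%, 0.0261% and 0.0382% in chronic sham and 0.0128%, 0.0245% and 0.0481% in chronic blast animals. Both chronic medians were above both sub-acute medians, and the groups overlapped. The libraries were made with a stranded kit, but the strand setting of the counting is not given in the sources used here, and without strand the reads of Mt-nd6 could not be told apart from RNA copied from the other strand.

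Mt-cyb, the cytochrome b subunit that carries electrons through complex III, had lowest, median and highest shares of 0.394%, 0.767% and 1.02% in sub-acute sham and 0.211%, 0.769% and 1.00% in sub-acute blast animals. The values were 0.108%, 0.948% and 1.11% in chronic sham and 0.186%, 0.785% and 1.18% in chronic blast animals. The chronic sham group held both the highest group median and the lowest animal of this gene.

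Mt-co1 codes for the catalytic subunit of complex IV, which reduces oxygen. Its lowest, median and highest shares were 0.966%, 1.70% and 2.17% in sub-acute sham, and 0.498%, 1.72% and 2.10% in sub-acute blast animals. They were 0.217%, 2.01% and 2.35% in chronic sham and 0.229%, 1.69% and 2.72% in chronic blast animals. As in Mt-cyb, the highest median and the lowest animal were both in the chronic sham group. Mt-co2, which accepts electrons from cytochrome c, ran from 0.0966% to 0.736% of a library around a median of 0.561%. Mt-co3, the third core subunit of complex IV, ran from 0.0788% to 1.04% around 0.655%. Mt-atp6, part of the proton channel of ATP synthase, ran from 0.0684% to 1.29% around 0.777%. In these 3 genes, too, the lowest animal was CS115.

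The genes did not move by equal amounts in the 7 libraries with the lowest shares. Each library was compared with the median of its own group on the log2 CPM scale, that is log2 counts scaled to library size with TMM. Mt-nd4, whose counts were the lowest of the 10 and are uncertain, had the largest median difference, -2.81, followed by Mt-nd2 at -2.30 and Mt-atp6 at -2.19. The medians of Mt-co3, Mt-co1, Mt-cyb, Mt-nd1 and Mt-co2 were -1.90, -1.85, -1.84, -1.81 and -1.52. All 7 libraries were below their group medians in these 8 genes. The median difference was -0.99 in Mt-nd5 and -0.65 in Mt-nd6, and 6 of 7 libraries were below their group medians in each.

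The animal that was above its group in both genes was CB149, at 0.56 for Mt-nd5 and 0.93 for Mt-nd6, while its Mt-co1 was at -2.89 and its Mt-cyb at -1.77. In CS115 the difference was -4.91 for Mt-nd4, -3.39 for Mt-co1, -0.68 for Mt-nd5 and -0.06 for Mt-nd6. In AB239, the differences lay closer together, from -1.61 for Mt-nd4 to -0.65 for Mt-nd6. The order of Mt-nd4, Mt-co1 and Mt-nd6 was the same in 6 of the 7 libraries, and in CB149 Mt-co1 was lower than Mt-nd4. These libraries were picked by their share of the same genes, so the values are a description with no test.

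**Figure D3:**
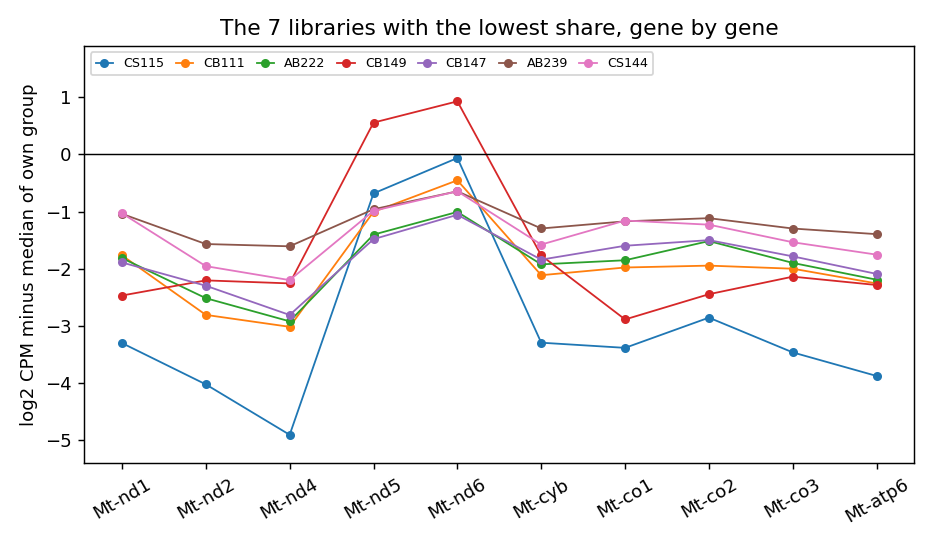
Each line is 1 of the 7 libraries with the lowest share, the horizontal axis lists the 10 genes, and the vertical axis gives log2 CPM minus the median of the animal's own group. The lines dip furthest at Mt-nd4, down to -4.91 in CS115, except that of CB149, which is lowest at Mt-co1, and all are highest at Mt-nd6, where CB149 is at 0.93.

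The 8 genes other than Mt-nd5 and Mt-nd6 went up and down together from animal to animal. After each animal was centred on its group mean, the 28 pairs among these 8 genes had Pearson correlations of log2 CPM of 0.94 to 0.99 over the 62 animals. They were 0.84 to 0.97 over the 52 animals outside the libraries of wide spread. The 8 genes were grouped after these values were seen, and the points share libraries, depth and scaling, so the correlations are a description.

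Mt-nd5 and Mt-nd6 followed the other genes less closely. Mt-nd5 had correlations of 0.64 to 0.78 with the 8 genes over all animals, and of 0.88 to 0.94 without the libraries of wide spread. Mt-nd6 had correlations of 0.24 to 0.34 with the 8 genes over all animals, and of 0.14 to 0.32 without those libraries. Thus Mt-nd5 came close to the other genes once those libraries were left out, whereas the correlations of Mt-nd6 were low in both sets. Between Mt-nd5 and Mt-nd6 the correlation was 0.63, and 0.40 without those libraries.

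**Figure D4:**
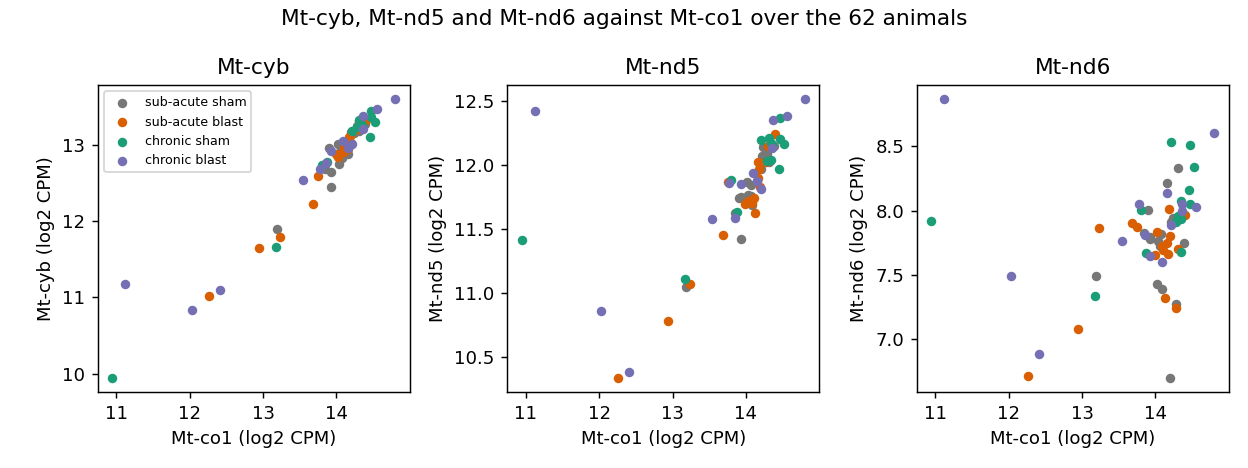
Each point is an animal, colored by group, and the axes give log2 CPM of Mt-cyb, Mt-nd5 or Mt-nd6 against log2 CPM of Mt-co1. Points of Mt-cyb lie along a line with CB149 above it, those of Mt-nd5 do so with CS115 and CB149 far above it at the left, and those of Mt-nd6 are scattered.

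The genes were also compared as counts per 100 counts of Mt-co1 in the same library, again unadjusted for length. For Mt-cyb the ratio ran from 35.0 to 103.7 with a median of 46.2, and from 35.8 to 51.6 without the libraries of wide spread. For Mt-nd5 it ran from 17.6 to 246.6 with a median of 21.6, and the values of 138.5 in CS115 and 246.6 in CB149 were far above the rest. In the animals outside the libraries of wide spread it ran from 17.6 to 27.0. For Mt-nd6 the ratio ran from 0.549 to 21.0, and the highest values were 12.3 in CS115 and 21.0 in CB149. Over the 52 animals outside the libraries of wide spread it ran from 0.759 to 2.42, and the groups overlapped. In these 52 animals the SD of the ratio was 22.9% of its mean for Mt-nd6 and 9.87% for Mt-nd5. In the remaining genes it ran from 5.31% for Mt-co3 to 17.1% for Mt-nd4, so Mt-nd5 did not stand apart there.

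The 3 genes outside the list most like it were ENSRNOG00000033299, ENSRNOG00000033615 and ENSRNOG00000045885, with Pearson correlations of 0.978, 0.968 and 0.964 with the mean log2 CPM of the 10 genes over the 62 animals. With the libraries of wide spread left out these were 0.952, 0.887 and 0.807. No symbol was available for the 3 genes, so whether they are also mitochondrially encoded was not checked. The list of 10 may therefore not hold every mitochondrial gene in the counts. Of the 16525 genes tested outside the list, 906 had a correlation above 0.8 and 275 below -0.8 over all animals, against 8 and 0 without those libraries. Far fewer genes thus passed these limits when the 10 libraries were left out. Apart from the 3 named genes, it was not followed which genes kept a high correlation. The share of the 10 genes also varied less there, with an SD of 1.19 over 52 animals against 1.75 over 62.

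The study asked whether repeated mild blast exposure changes gene expression in the amygdala at each time-point. At the sub-acute time-point, none of the 10 genes was called between blast and sham animals in limma, at an adjusted p under 0.05 and a fold of at least 1.2, as was the case for 0% of all genes. None had a raw p under 0.05, against 5.18% of all genes, and edgeR and DESeq2 also called none of the 10. All 10 log2 fold changes were below 0, from -0.35 for Mt-nd4 to -0.08 for Mt-nd6, with a median of -0.18. Since 8 of the genes went up and down together, a direction shared by the 10 is not 10 separate observations. That holds for the comparisons below as well. Adjusted p-values were 0.809 to 0.875.

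The intervals show how large a difference these animals could hide. For Mt-nd4 the log2 fold change was -0.35 (SE 0.35, 95% interval -1.06 to 0.35), for Mt-co1 -0.18 (SE 0.25, -0.68 to 0.33), and for Mt-nd6 -0.08 (SE 0.13, -0.34 to 0.18). All 10 intervals held 0. The median of the 10 genes was -0.08 without AB222. When the libraries of wide spread were left out, 8 of the 10 changes were above 0, all lay between -0.08 and 0.07, and none was called, as was the case for 0% of all genes.

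At the chronic time-point, none of the 10 genes was called between blast and sham animals in limma, again with 0% of all genes called. None had a raw p under 0.05, against 5.04% of all genes, and edgeR and DESeq2 called none of the 10. The log2 fold changes were all below 0, from -0.31 for Mt-co1 to -0.09 for Mt-nd6, with a median of -0.23, and adjusted p-values were 0.918 to 0.961. For Mt-co1 the 95% interval was -0.86 to 0.24 (SE 0.28), for Mt-cyb the change was -0.22 (SE 0.27, -0.76 to 0.32), and all 10 intervals held 0. The size of these changes turned on single animals. The median of the 10 genes was -0.47 without CS115 and -0.09 without CB111, and no gene was called either way. Mt-nd1, Mt-co1 and Mt-co2 each had a raw p under 0.05 in 1 of the 62 fits without 1 animal. These limma p-values were 0.0422, 0.0236 and 0.0274. The changes were -0.13 to -0.05 when the libraries of wide spread were left out, with 0 of the 10 and 0% of all genes called.

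In sham animals, the chronic and sub-acute time-points were compared to see changes that come with time and age. None of the 10 genes was called in limma, edgeR or DESeq2, while 1.55% of all genes were called in limma. Of all 16535 genes, edgeR called 312 and DESeq2 455. The changes in limma were below 0 in 8 genes and above 0 in Mt-nd5 and Mt-nd6, from -0.15 to 0.29 with a median of -0.10, whereas in edgeR and DESeq2 all 10 were above 0, with medians of 0.08 and 0.09. With the library total as a covariate in limma all 10 were also above 0, with a median of 0.32, and none was called, while 0.847% of all genes were. In that fit 1 of the 10, Mt-nd6, had a raw p under 0.05, against 12.7% of all genes. Without that covariate the largest change was that of Mt-nd6, whose mean log2 CPM was 8.01 ± 0.325 (SD, n = 14) in chronic and 7.71 ± 0.381 (SD, n = 17) in sub-acute sham animals. Its log2 fold change was 0.29 (SE 0.14, 95% interval 0.02 to 0.56), with a limma raw p of 0.0354 and an adjusted p of 0.242. It was the only 1 of the 10 with a raw p under 0.05, against 18% of all genes, and its fold was also at least 1.2, a pair of limits that 8.85% of all genes passed. For Mt-nd5 the change was 0.15 (SE 0.16, adjusted p = 0.627), and for Mt-co1 -0.09 (SE 0.27, adjusted p = 0.884).

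This comparison changed direction with the libraries of wide spread. Without them all 10 log2 fold changes were above 0, from 0.21 for Mt-co2 to 0.44 for Mt-nd4, and all 10 had a raw p under 0.05, which 24.3% of all genes had. Adjusted p-values were then 0.0654 to 0.191, so none was called, while 3.55% of all genes were. The chronic sham libraries left out, CS115 and CS144, had the lowest shares of their group. The sub-acute sham ones, AS204 and AS224, had shares of 7.19% and 6.73%. The cut thus took low animals from the chronic side and higher ones from the sub-acute side. The direction and p-values of this fit depend on that choice and are a description. Leaving out CS115 alone turned the median of the 10 genes from -0.10 to 0.17, with all 10 changes above 0.

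In blast animals, none of the 10 genes was called between the chronic and sub-acute time-points in limma, edgeR or DESeq2, while 9.73% of all genes were called in limma. Of all 16535 genes, edgeR called 2143 and DESeq2 2312. In limma, the changes of the 10 genes are given first. The changes were below 0 in 7 genes, from -0.23 to 0.28 with a median of -0.13, and in 5 genes in edgeR and 4 in DESeq2, whereas all 10 were above 0 with the library total as a covariate. With that covariate the changes were 0.25 to 0.74 with a median of 0.56, and 5 of the 10 had a raw p under 0.05, against 22.1% of all genes. The lowest adjusted p was 0.173, so none was called, while 3.38% of all genes were. The chronic libraries were the shallower ones, so time and depth moved together. With the counts of every animal thinned to the smallest library, 7 of the 10 changes were below 0 and the median was -0.10. Thinning keeps the share of each gene in its library nearly unchanged. The thinned fit therefore could not separate time from other differences between libraries that go with depth. Without the covariate Mt-nd6 again had the highest change, 0.28 (SE 0.14, 95% interval 0.01 to 0.55), with a raw p of 0.0421 and an adjusted p of 0.150, and was the only 1 of the 10 with a raw p under 0.05, against 29.8% of all genes. Its fold was also at least 1.2, and 16.3% of all genes passed both limits. For Mt-nd5 the change was 0.17 (SE 0.16, adjusted p = 0.493), and for Mt-co1 -0.23 (SE 0.26, adjusted p = 0.603). In the fit without the libraries of wide spread all 10 were above 0, from 0.07 for Mt-co2 to 0.33 for Mt-nd4, and none was called, while 6.18% of all genes were. Leaving out CB111 alone moved the median from -0.13 to 0.02.

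**Figure D5:**
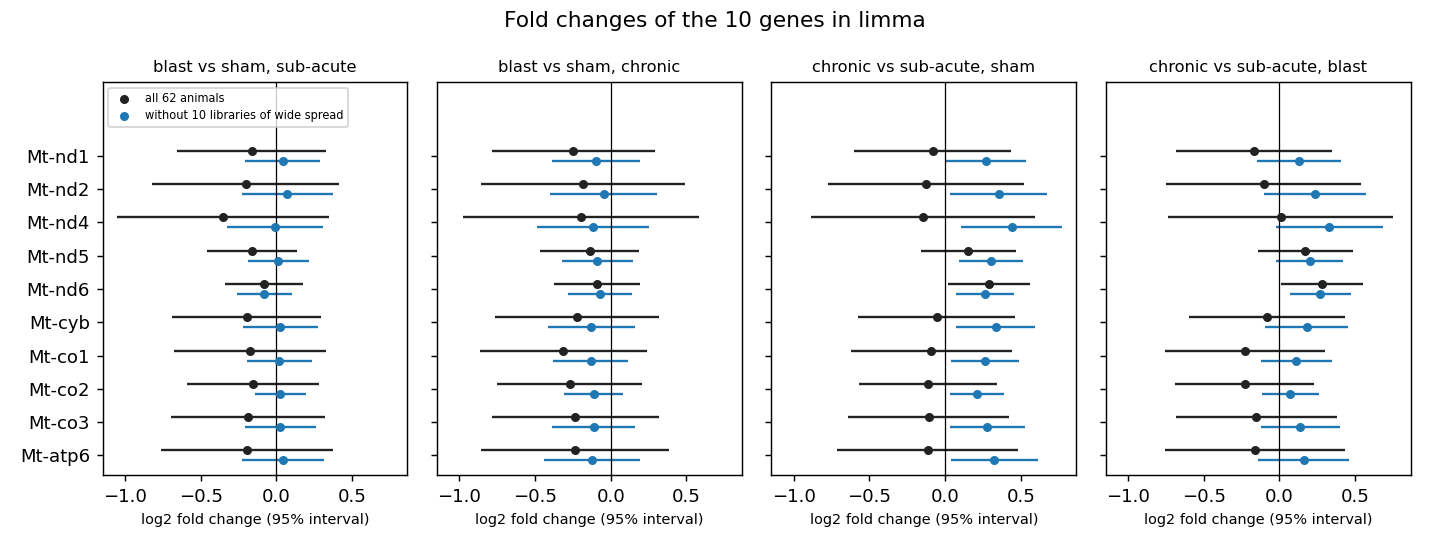
Points are log2 fold changes of the 10 genes in limma with 95% intervals, for blast against sham at each time-point and for chronic against sub-acute in each treatment, over all 62 animals (black) and without the 10 libraries of wide spread (blue). Most black intervals hold 0, and in the comparison of time in sham animals the blue points lie between 0.21 and 0.44.

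The interaction compares the change with time in blast animals with that in sham animals. None of the 10 genes had an adjusted p under 0.05 for the interaction in limma, edgeR or DESeq2, as was the case for 0% of all genes in limma, and none had a raw p under 0.05, against 5.56% of all genes. The interaction was -0.14 to 0.16 on the log2 scale with a median of -0.04, and adjusted p-values were 0.967 to 0.997. For Mt-nd6 it was -0.01 (SE 0.19, 95% interval -0.39 to 0.37), and for Mt-co1 -0.14 (SE 0.37, -0.88 to 0.61).

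With time averaged over sham and blast animals, a contrast added after the data had been seen, 1 of the 10 genes was called in limma, while 11.5% of all genes were called. That gene was Mt-nd6, at a log2 fold change of 0.29 (SE 0.10, 95% interval 0.09 to 0.48) and an adjusted p of 0.0238. The call was kept in edgeR and DESeq2, in which 2357 and 2449 of all 16535 genes were called. It was lost with the leading digit of the animal number as a covariate, at 0.24 and an adjusted p of 0.479, and with the library total as a covariate, at 0.30 and an adjusted p of 0.118. Most calls over all genes were lost there too, with 37 and 793 of 16535 genes called, against 1900 without a covariate. The call of Mt-nd6 was also lost without the 2 shallowest libraries, where the change of 0.25 was under the fold threshold at an adjusted p of 0.0437. In that fit 1638 of all 16498 genes were called. Leaving out CB149 gave 0.25 and leaving out CB122 gave 0.26, both under the fold threshold, and 60 of the 62 fits without 1 animal kept the call. Leaving out the libraries of wide spread gave 0.27 (SE 0.07) with an adjusted p of 0.00371, and Mt-nd4 was called as well, at 0.38 (SE 0.12) with an adjusted p of 0.0143, so that 2 of the 10 were called, against 10.5% of all genes. In that set 4 of the 10 genes had an adjusted p under 0.05, against 28% of all genes. That set lacks the 7 libraries with the lowest shares of these genes, so its p-values are a description. With treatment averaged over the time-points, none of the 10 was called in limma, edgeR or DESeq2, as was the case for 0% of all genes in limma. None had a raw p under 0.05, against 4.68% of all genes, and the changes were -0.28 to -0.08.

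The animal numbers in the labels begin with 1, 2 or 6, and what the leading digit stands for is not given. All 28 chronic animals have numbers that begin with 1, as do 2 sub-acute sham and 5 sub-acute blast animals, so time and number series can hardly be told apart. The mean share of the 10 genes was 4.41% in the 2 sub-acute sham animals of series 1 and 5.84% ± 0.941 (SD, n = 14) in those of series 2. In sub-acute blast animals it was 5.91% ± 0.560 (SD, n = 5) in series 1 and 4.94% ± 1.82 (SD, n = 12) in series 2. Within series 1 the change with time in sham animals was 0.15 to 0.67 over the 10 genes and that in blast animals -0.50 to 0.26, with none called. Hardly any gene was called there, 1 of all 17811 in sham and 14 in blast animals, and the sub-acute sham side held 2 animals. For Mt-nd6 the changes were 0.15 (SE 0.28) and 0.26 (SE 0.20). Within series 2 the sub-acute difference between blast and sham animals was -0.03 to -0.64, the latter for Mt-nd4 (SE 0.28, limma adjusted p = 0.285), with none called. Of all 15903 genes 0 were called there. In that fit 1 of the 9 genes other than Mt-nd6 had a limma raw p under 0.05, at 0.0298. The same limit was passed by 2582 of all 15903 genes tested there.

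The spread of the 10 genes between animals was compared through the ratio of their variances. The variance of log2 CPM in chronic sham animals was a median of 7.68 times that in sub-acute sham animals, from 0.726 in Mt-nd6 to 13.2, where the median of all genes was 1.42, and 9 of the 10 genes were above that median. Without the libraries of wide spread the median of the 10 was 0.387, where that of all genes was 0.883, and 1 of the 10 was above. The SD of log2 CPM of Mt-co1 went from 0.943 to 0.228 in chronic sham animals and from 0.270 to 0.278 in sub-acute sham animals when the 2 such libraries of each group were left out. In blast animals the median ratio of chronic to sub-acute variance was 2.10, below the 2.41 of all genes, and 2 of the 10 genes were above. Without those libraries it was 0.963, where that of all genes was 1.46, and 2 of the 10 were again above. Between sub-acute blast and sham animals the median ratio was 3.49, where that of all genes was 0.806, and all 10 genes were above. Without the libraries of wide spread it was 1.19, where that of all genes was 0.735, and 9 of the 10 were above. Between chronic blast and sham animals it was 1.04 over all animals and 2.93 without the libraries of wide spread, where those of all genes were 1.27 and 1.28. No test was made on these ratios.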

How the data were processed

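RNA from amygdala punches was sequenced as rRNA-depleted stranded libraries, and per the labels the authors used STAR 2.4.2a, featureCounts 1.4.3-p1 and the Rnor_6.0 build. The deposited values are raw counts per gene with 1 column for each animal. Strand and multi-mapping settings of the counting are not given in the sources used here. A further 2 columns matched no sample and were not used.

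Groups came from the labels. Counts were scaled by TMM (edgeR 4.0.16), and voom in limma 3.58.1 (R 4.3.3) was used to fit 4 group means to the 62 animals. The filter filterByExpr kept 16535 genes, and p-values were adjusted over these by the Benjamini-Hochberg method. A gene was called at an adjusted p under 0.05 and a fold of at least 1.2, and the interaction had no fold threshold. Log2 CPM used a prior count of 2. With 1 library for each animal, p-values measure the spread between animals. Total counts were 18220986 to 78585782. Over 454 pairs of animals within groups the lowest mean chi-square per gene was 15.4, so no library appeared to be deposited again within its group. Pairs across groups and the 2 unmatched columns were not compared. The scripts were tested on simulated data.

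Named genes were the 10 genes and the 3 most correlated with their mean. The members and lists were chosen with earlier results of these data known. Of 13 gene lists, 0 could be matched to identifiers, so no result is given for them, and no sequence or coordinate of the 10 genes was available here. Alternatives were DESeq2 1.42.0, the quasi-likelihood test of edgeR, different filters, scaling and fold thresholds, sample quality weights, surrogate variables (sva 3.50.0), covariates, thinned counts and subsets of animals. Leaving out the libraries of wide spread and the averaged contrasts were added after seeing the data.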

Additional observations from a re-analysis of the deposited data

How the results depend on the processing

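No paired analysis was possible because all 4 groups hold different animals and share no replicate numbers that pair them. In the 4 comparisons of groups and the interaction the count of called genes was 0 under every alternative except a raw p under 0.05 with a fold of 1.2, which gave 1, Mt-nd6, for time in sham and 1 for time in blast animals. For time averaged over treatments the count of 1 became 0 with the leading digit of the animal number or the library total as a covariate, without the 2 shallowest libraries and with a log2 fold threshold of 1.2, and 2 without the libraries of wide spread. Leaving out each animal in turn gave 0 to 1, with 60 of 62 fits keeping the call. With the leading digit or the library total as a covariate, 37 and 793 of all 16535 genes were called, against 1900 without a covariate. The mean share in sub-acute sham animals was 4.41% in number series 1 alone. The cause of these changes was not tested.

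Of 912 values of single genes under the alternatives, 161 had the other sign than in the fit over all animals, all of them in changes that were called in neither. They were 72 for time in sham, 40 for time in blast, 37 for the interaction, 11 for blast at the sub-acute and 1 at the chronic time-point, and the direction of time in sham animals changed most often. Leaving out an animal moved the median log2 fold change of the 10 genes between -0.14 and 0.17 for time in sham, -0.23 and 0.02 for time in blast, -0.24 and -0.08 for blast at the sub-acute and -0.47 and -0.09 at the chronic time-point. The smallest count of any of the genes was 87, for Mt-nd4 in CS115, and for Mt-nd6 it was 4359, so counting error was largest for Mt-nd4.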
